A study of Mus musculus with 6 samples.

Results

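Acsl4 is the gene carried by the virus of this study, and the peaks over it were examined library by library. Islets of mice aged 16 weeks had been profiled by ATAC-seq, where Tn5 cuts accessible DNA and tags it for sequencing. There were 6 libraries, 2 in each of 3 groups: wildtype islets given a GFP adenovirus (Con+Ad-GFP, here control-GFP), βRicKO islets, which lack Rictor in beta cells, given the same virus (βRicKO+Ad-GFP, here knockout-GFP), and βRicKO islets given an Acsl4 adenovirus (βRicKO+Ad-Acsl4, here knockout-Acsl4). All received a virus for 48 h in culture, so no group is free of virus. The Cre driver, the alleles of the control mice, the form of Acsl4 in the virus, and whether 2 libraries of a group stand for different mice are not given in the sources used here. A p-value between groups thus speaks for the spread of these libraries alone, and that spread may be technical. Peaks overlapping the gene or 5 kb on either side were taken, which gave 13 of the 18932 peaks of the 6 lists.

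Acsl4 is an acyl-CoA synthetase of the endoplasmic reticulum and related membranes that joins coenzyme A to long-chain polyunsaturated fatty acids, with a preference for arachidonic and adrenic acid. The acyl-CoA it makes feeds the phospholipids whose peroxidation drives ferroptosis, and in beta cells the enzyme has been placed on insulin granules. In a virus, a gene of this kind is usually carried as a copy without its introns, apart from its place on the chromosome. A peak list gives the positions where reads aligned and does not tell which DNA molecule they came from.

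The gene spans 142317993 to 142390802 on chromosome X of GRCm38 (72810 bp) and is read on the minus strand, so its start lies at the high coordinate. RefSeq lists 6 transcripts for it, and the transcript start used here is 142390535. Distances from the start hold for that position alone. It lies within the gene as listed, which reaches 142390802, and so does the promoter window. The 300 bases of the RefSeq promoter (GRCm38.p6, chrX:142390486-142390785, minus strand) are shown because a peak of the sample labelled control-GFP 1 lies on them. Capitals mark the 242 bases under that peak.
Acsl4 promoter: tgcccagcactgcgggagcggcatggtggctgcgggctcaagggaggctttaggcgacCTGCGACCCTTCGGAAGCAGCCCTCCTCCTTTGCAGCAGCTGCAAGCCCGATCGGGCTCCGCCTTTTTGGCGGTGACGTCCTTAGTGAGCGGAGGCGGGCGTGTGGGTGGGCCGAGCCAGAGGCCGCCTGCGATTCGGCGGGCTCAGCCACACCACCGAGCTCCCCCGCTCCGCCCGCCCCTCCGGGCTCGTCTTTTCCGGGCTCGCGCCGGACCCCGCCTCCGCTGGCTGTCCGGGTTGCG
The sequence is 71.7% G and C, against a median of 52.7% over 32851 RefSeq promoters and of 64.3% over the 3460 promoters with a peak in that library. It holds 33 CG dinucleotides, more than or as many as 92.3% of promoters. On both strands, the GC box GGGCGG matched at 2 places that overlap each other, both on the opposite strand, beginning 22 and 18 bases before the transcript start. This motif occurs in 35.7% of promoters of the table. The ETS-type letters CGGAAG matched once, at base 70 of the printed strand (16.9% of promoters). Within that match lies 1 of the 2 matches of GGAA, which 96.0% of promoters hold. The TATA box (TATAAA), the CCAAT box, the cAMP response element (TGACGTCA), the AP-1 site (TGACTCA), the E-box (CACGTG) and the FOXO core (GTAAACA) did not occur in this window.

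The Acsl4 peaks lay in 2 of the 6 libraries, both labelled Ad-GFP. The sample labelled control-GFP 1 had 7, the one labelled knockout-GFP 1 had 6, and the ones labelled control-GFP 2, knockout-GFP 2, knockout-Acsl4 1 and knockout-Acsl4 2 had 0. The gene that the virus adds was thus marked in samples labelled as free of that virus and in neither sample labelled as given it, and every library is called by its label below. Whether samples or lists were exchanged before deposit was not tested, so each group mean and each difference between groups stands only for the labels as given. The means were 3.5 ± 4.95 peaks in control-GFP, 3 ± 4.24 in knockout-GFP and 0 ± 0 in knockout-Acsl4 (SD, n = 2 each). Each group labelled Ad-GFP held 1 library with peaks and 1 without, so the groups overlap at 0.

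**Figure D1:**
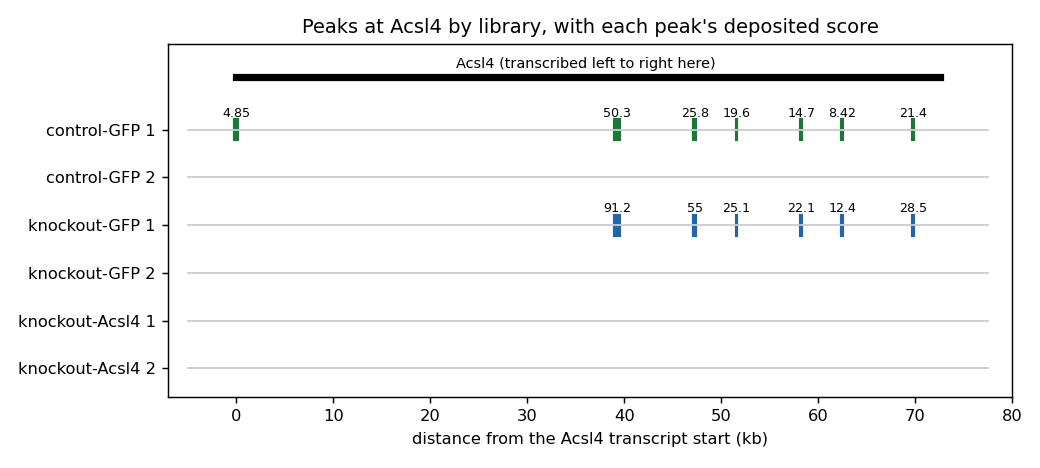
Peaks at Acsl4 in each library (rows) against the distance from the transcript start in kb (x axis), drawn to scale, with each peak's deposited score above it; the black bar is the gene. The sample labelled control-GFP 1 has 7 peaks and the one labelled knockout-GFP 1 has 6 at the same places, and the other 4 rows are empty.

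None of the comparisons between groups showed a difference beyond the spread between libraries. The mean of knockout-GFP minus that of control-GFP was -0.5 peaks (exact permutation p = 1). For knockout-Acsl4 minus knockout-GFP it was -3 and for knockout-Acsl4 minus control-GFP -3.5 (exact permutation p = 1 for each). These 2 against 2 designs cannot give a two-sided p below 0.33. For the 2 samples labelled Ad-Acsl4 minus the 4 labelled Ad-GFP it was -3.25 peaks (two-sided exact permutation p = 0.467, smallest possible 0.067). Adjusted by Benjamini-Hochberg over these 4 comparisons, every p is 1. The comparisons share libraries and are not independent of each other. Without the sample labelled control-GFP 1 the first difference became 3 and the third 0, and without the one labelled knockout-GFP 1 the first became -3.5 and the second 0. Without the sample labelled control-GFP 2 the first became -4 and the third -7. Without the one labelled knockout-GFP 2 the first became 2.5 and the second -6.

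By presence alone, Acsl4 had none of the labelled group patterns. A peak in the gene plus 5 kb in both knockout-GFP libraries and neither control-GFP library was found for 1.32% of 21887 protein-coding genes, and the reverse for 0.338%. A peak in both knockout-GFP libraries and neither knockout-Acsl4 library was found for 6.81%, and the reverse for 0.119%. Against control-GFP, these shares were 1.81% for control-GFP only and 0.105% for knockout-Acsl4 only. A peak in both samples labelled Ad-Acsl4 and no sample labelled Ad-GFP, the pattern that would follow the virus labels, was found for 0.0777% of genes, and Acsl4 was not among them. A peak in all 4 samples labelled Ad-GFP and neither labelled Ad-Acsl4 was found for 0.964%. Acsl4 did belong to the 14.6% of genes with a peak in at least 2 samples labelled Ad-GFP and in neither labelled Ad-Acsl4. The exact set of libraries seen for Acsl4 was shared by 170 genes in all (0.777%), and by 19 (0.0868%) where only peaks more than 1000 bp inside the gene were counted.

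The 6 peaks found in both libraries are numbered P1 to P6 by rising coordinate, so P6 is nearest the transcript start. P6 spanned 142350960 to 142351606 in each, a width of 647 bp that placed it at percentile 97.3 of widths in the sample labelled control-GFP 1 and 98.6 in the one labelled knockout-GFP 1. Its deposited score, read as −log10 q and meaningful only within a list, was 50.3 in the former (rank 66 of 4442) and 91.2 in the latter (rank 41 of 2206). P5 spanned 142343085 to 142343438 with a score of 25.8 in the former (354 bp), and 142343085 to 142343444 with a score of 55.0 in the latter (360 bp). P6 and P5 were thus the widest and the highest-scoring of the 6 in each list.

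The other 4 were narrow. P4 spanned 142338884 to 142339041 (158 bp, score 19.6) in the sample labelled control-GFP 1 and 142338884 to 142339056 (173 bp, 25.1) in the one labelled knockout-GFP 1. P3 spanned 142332194 to 142332385 (192 bp, 14.7) in the former and 142332201 to 142332381 (181 bp, 22.1) in the latter. The lowest score of the 6 in either list was that of P2, which is also the narrowest. P2 spanned 142327989 to 142328135 (147 bp, 8.42) and 142327985 to 142328128 (144 bp, 12.4), and P1 142320680 to 142320831 (152 bp, 21.4) and 142320680 to 142320827 (148 bp, 28.5). Widths of P1 to P4 lay between percentiles 10.2 and 36.6 of their lists, while their scores lay between percentiles 69.1 and 96.3. The order of the 6 by score was the same in the 2 lists, and so was their order by width. Relative to P6, the score of P5 was 51.3% in the former list and 60.3% in the latter, and that of P2 16.7% and 13.6%.

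All 6 lay in the part of the gene farther from its start. P6 began 38.9 kb after the transcript start, and the centres of the 6 lay 54.1% to 96.2% of the way from the transcript start to the far end of the gene. Gaps between neighbours were 7157, 4058, 6498, 4043 and 7521 bp from P1 to P6 in the sample labelled control-GFP 1, and 7157, 4072, 6502, 4028 and 7515 bp in the one labelled knockout-GFP 1. The span from P1 to P6 was 30927 bp in both, of which 1650 and 1653 bp lay under peaks (5.34% in both lists). The signal was therefore called as short separate intervals and not as a continuous block. The gene table used here gives no exons, so whether these intervals coincide with exons was not analysed here.

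Borders of the 6 peaks agreed closely between the 2 libraries. The starts of P1, P4, P5 and P6 were identical, and those of P2 and P3 differed by 4 and 7 bp. Among the ends, P6 was identical, P1 and P3 differed by 4 bp, P5 by 6, P2 by 7 and P4 by 15 bp. Both borders were within 10 bp for 5 of 6 peaks and within 50 bp for all 6. The same libraries shared 1415 other overlapping peak pairs, of which 4.95% were within 10 bp at both borders and 24.9% within 50 bp. The median difference was 50 bp at the start and 60 bp at the end for those pairs, against 0 and 5 bp at Acsl4. Borders were closer among strong peaks. Of the 119 other pairs with scores at least as high as those of P2 in both lists, a set chosen after seeing the data, 35.3% were within 10 bp at both borders and 62.2% within 50 bp, with medians of 11 and 7 bp. Of the 21 such pairs that lay more than 1000 bp inside a gene and away from any gene end, 10 were within 10 bp (47.6%). No test was made of 6 peaks that share a gene and 2 libraries.

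**Figure D2:**
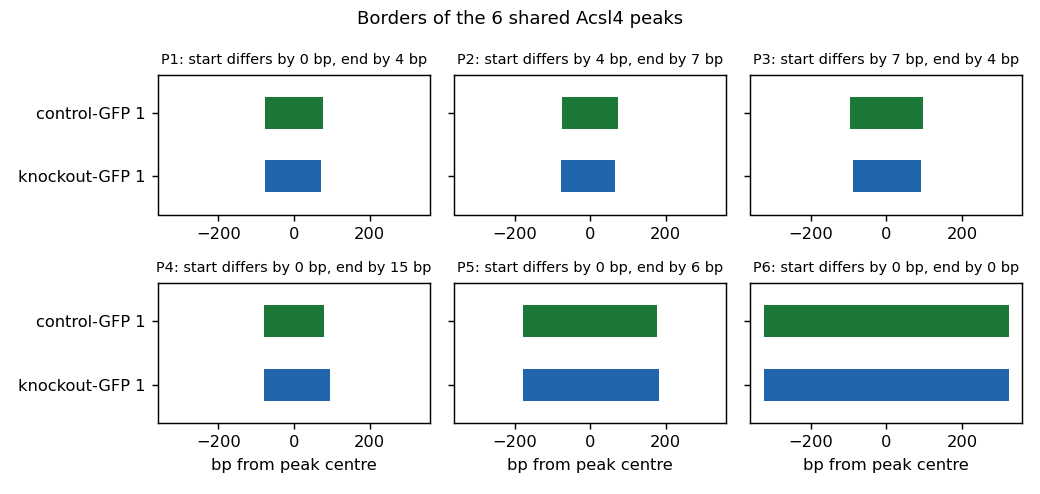
Extent of P1 to P6 in bp from the centre of the peak in the sample labelled control-GFP 1 (x axis), with one bar per library. Starts differ by 0 to 7 bp and ends by 0 to 15 bp, and P6 is the same to the base.

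**Figure D3:**
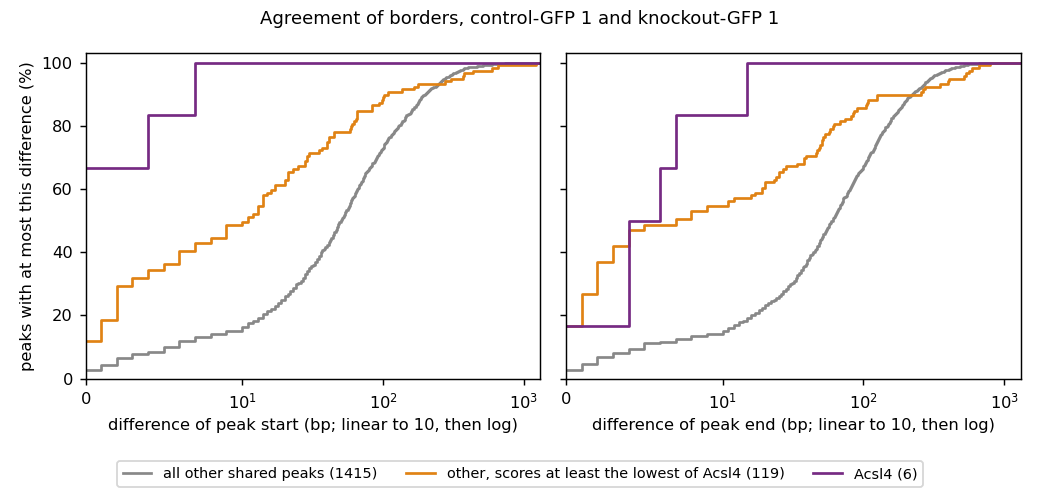
Share of shared peaks (y axis, percent) whose start (left) or end (right) differs between the samples labelled control-GFP 1 and knockout-GFP 1 by at most the distance on the x axis (bp, linear to 10 and logarithmic beyond). At Acsl4 all starts are within 7 bp and all ends within 15 bp, while the median difference of the 1415 other pairs (grey) is 50 bp for starts and 60 bp for ends, and that of the 119 with scores at least as high as those of P2 (orange) 11 and 7 bp.

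Peaks this strong in both libraries were otherwise found in further lists. Of the 119 other pairs with scores at least as high as those of P2, 116 (97.5%) were called in the sample labelled knockout-GFP 2, 96 (80.7%) in the one labelled control-GFP 2, 99 (83.2%) in the one labelled knockout-Acsl4 1 and 50 (42.0%) in the one labelled knockout-Acsl4 2. None of the 119 was missing from all 4. These pairs come from the same 2 libraries, with a cut-off chosen after seeing the data, so no upper limit on that share is given. For the 21 of them inside genes, as P1 to P6 are, the count was also 0, in a small set. For the 40 pairs with scores at least as high as those of P6, the counts were 40, 39, 40 and 30 in the same order. The sample labelled knockout-Acsl4 1, which has the shortest list (525 peaks), called all 40 and had no peak at Acsl4. The 40 were picked by their scores in 2 other lists, so what that list would call at Acsl4 was not tested. Among all 1415 other pairs, 145 (10.2%) were missing from the other 4 lists. Their median scores were 4.85 in the sample labelled control-GFP 1 and 3.31 in the one labelled knockout-GFP 1, and their highest were 28.2 and 13.4. At Acsl4, 5 of the 6 peaks scored above 13.4 in the latter, but only P6 scored above 28.2 in the former. P1 to P5 lay within the range of these pairs there, and 23 of the 145 scored at least as high as P2 in that list, against 1 of 145 in the one labelled knockout-GFP 1. Scores in 1 list do not measure read depth in another, and these shares describe the libraries, with no test.

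**Figure D4:**
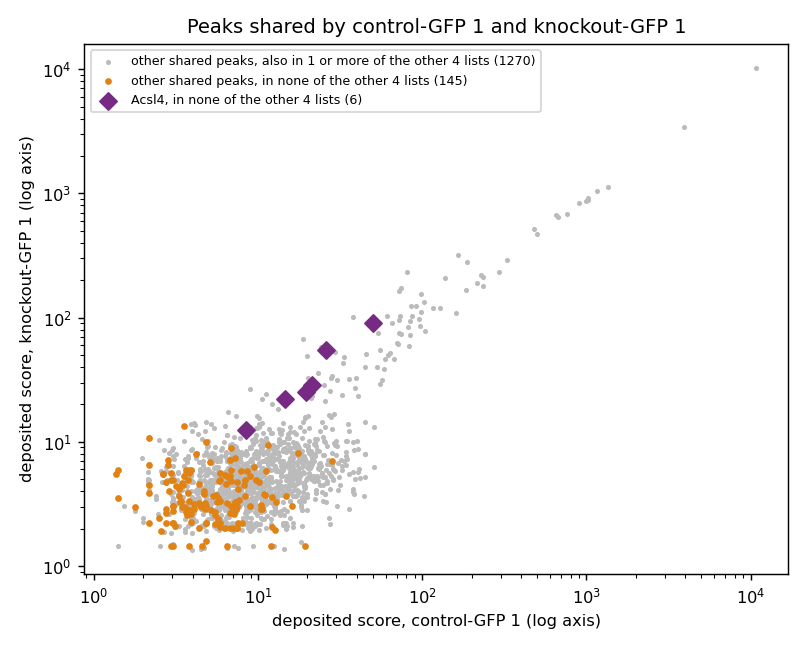
Deposited scores of peaks shared by the samples labelled control-GFP 1 (x axis) and knockout-GFP 1 (y axis), both on log axes; orange marks the 145 other pairs found in none of the other 4 lists, grey the rest, and purple diamonds the 6 Acsl4 peaks. The orange points reach 28.2 on the x axis, which 1 of the 6 Acsl4 peaks exceeds, and 13.4 on the y axis, which 5 of the 6 exceed.

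The seventh peak of the sample labelled control-GFP 1 lay at the start of the gene, from 142390416 to 142390727, or from 192 bp before to 119 bp after the transcript start. It was 312 bp wide with a score of 4.85, at percentile 40.7 of its list, so it scored below all 6 peaks inside the gene. No other library had a peak on this promoter, the sample labelled knockout-GFP 1 included. A peak lay on 10.5% of all RefSeq promoters in the sample labelled control-GFP 1, 5.22% in the one labelled knockout-GFP 1 and 11.1% in the one labelled knockout-GFP 2. In the samples labelled knockout-Acsl4 1, knockout-Acsl4 2 and control-GFP 2 it was 0.597%, 0.39% and 1.06%. On chromosome X alone these shares were lower in all 6 libraries, at 6.62% in the sample labelled control-GFP 1, 3.43% in the one labelled knockout-GFP 2, 0.736% in the one labelled knockout-GFP 1, 0.0818% in the one labelled knockout-Acsl4 2 and 0 in the remaining pair. At such shares a promoter without a peak is the usual case, so its lack in 5 libraries says nothing of the groups.

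Genes around Acsl4 held few peaks, as did most genes in these lists. None of the 5 nearest protein-coding genes on the low-coordinate side (Kcne1l, Nxt2, Gucy2f, Irs4 and Col4a5) or on the high-coordinate side (Tmem164, Ammecr1, Rtl9, Chrdl1 and Pak3) had a peak within 5 kb in the 2 libraries that marked Acsl4. Of all genes, 21.7% had one in the sample labelled control-GFP 1 and 11.2% in the one labelled knockout-GFP 1. Of X promoters, 6.62% and 0.736% had one, so genes without a peak are the usual case here. In the sample labelled knockout-Acsl4 2, 10.9% of all genes had one. That sample had 1 peak each at Irs4, an insulin receptor substrate (score 1.54), Ammecr1 (1.54) and Pak3, a p21-activated kinase (2.66). The other 5 libraries had none at any of the 10. In the sample labelled knockout-GFP 1 the nearest other peaks on the chromosome lay 29947 kb and 28283 kb beyond the ends of the gene. For the sample labelled control-GFP 1 these distances were 5576 and 3114 kb.

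Acsl4 therefore made up a large part of what was called on chromosome X in the sample labelled knockout-GFP 1. That list had 21 peaks on X, and 6 of them (28.6%) were in Acsl4, at ranks 1, 3, 5, 6, 7 and 9 by score among X peaks. In the sample labelled control-GFP 1, 7 of 109 X peaks (6.42%) were in the gene, with P6 at rank 2 and the promoter peak at rank 60. The lists without an Acsl4 peak had 15, 50, 7 and 257 peaks on X in the samples labelled control-GFP 2, knockout-GFP 2, knockout-Acsl4 1 and knockout-Acsl4 2.

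Several peaks inside a gene were rare in the 2 lists that marked Acsl4. Such shares were not computed for the other lists. In the sample labelled knockout-Acsl4 2 some genes had more than Acsl4 had in either list. Macrod2 had 13 there, and Dpp10 and Cntnap2 had 7 each, all named beyond the naming rule. In the sample labelled control-GFP 1, 21.7% of 21887 protein-coding genes had a peak within the gene or 5 kb of it, 3.36% had one more than 1000 bp inside, and 4 genes (0.0183%) had at least 6 inside. In the sample labelled knockout-GFP 1 these shares were 11.2%, 1.64% and 0.00914%, the last standing for 2 genes. Only Acsl4 and Sfi1, a centrin-binding protein of the centrosome, had at least 6 inside in both libraries (0.00914% of genes). The limit of 6 was taken from Acsl4, which therefore had to be among them. The Sfi1 peaks were spread over more libraries, with 7, 0, 6, 8, 5 and 1 in the samples labelled control-GFP 1, control-GFP 2, knockout-GFP 1, knockout-GFP 2, knockout-Acsl4 1 and knockout-Acsl4 2. Their scores ran from 2.98 to 4.96 in the first and from 3.18 to 8.0 in the third of these, below every inside peak of Acsl4.

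The other genes with the most inside peaks also differed from Acsl4 in their libraries. Sp140, a nuclear body protein of immune cells, had 6 such peaks in the sample labelled control-GFP 1 and 2 in the one labelled knockout-GFP 1, and was marked in 5 libraries. Gm38510, a predicted gene, had 6 and 2 and was marked in 4 libraries, as was C130026I21Rik with 4 and 2. These 2 overlap on chromosome 1 and can share peaks. Tmem267, a transmembrane protein, had 5 and 3 and was marked in all 6. Rcc1l, a mitochondrial factor, had 5 and 0, and Asic2, an acid-sensing ion channel, 0 and 2. Further genes not named here also had 2 in the sample labelled knockout-GFP 1, where Asic2 and C130026I21Rik were picked by symbol. Runs of 6 consecutive peaks no longer than 30927 bp that lay within 1 protein-coding gene occurred once in each of 3 lists, at Acsl4 in the samples labelled control-GFP 1 and knockout-GFP 1 and at Tmem267 in the one labelled knockout-GFP 2. Both limits, 6 peaks and 30927 bp, were taken from Acsl4 itself, so its own runs had to be found. Counted anywhere on the chromosomes, the 3 lists held 4, 4 and 7 such runs.

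**Figure D5:**
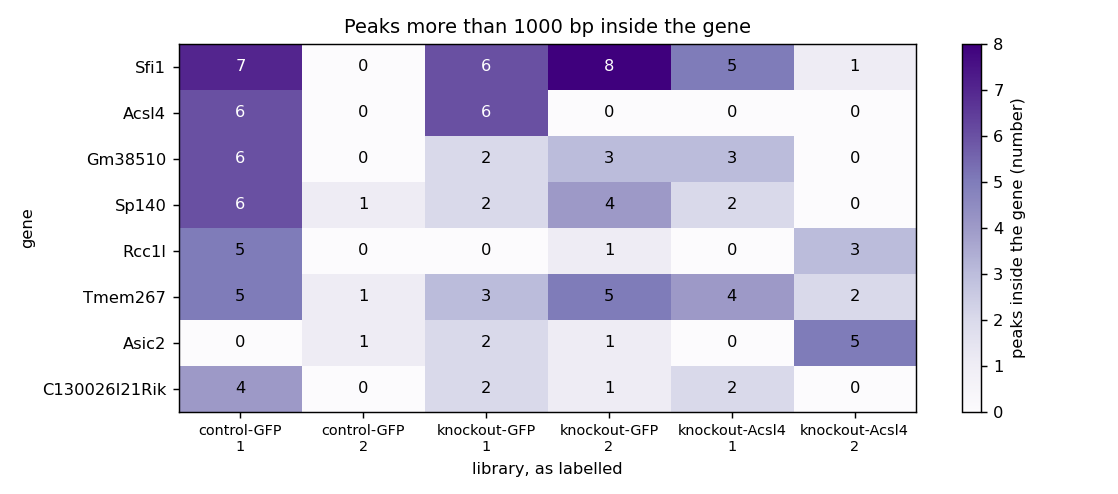
Number of peaks more than 1000 bp inside the gene (colour and digits) for the genes with the most such peaks in the samples labelled control-GFP 1 or knockout-GFP 1 (ties by symbol), by library as labelled. Acsl4 has 6 in each of these and 0 in the other 4, while Sfi1 and Tmem267 are also marked in the samples labelled knockout-GFP 2 and knockout-Acsl4 1.

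Over all 6 libraries, few genes came near the Acsl4 profile of peak numbers. Likeness was the summed absolute difference in the number of peaks (gene plus 5 kb) over the 6 libraries, for which a gene with no peak stands at 13. The smallest value was 8, for Rsph14, a radial spoke protein of cilia, with 3 peaks in the sample labelled control-GFP 1, 2 in the one labelled knockout-GFP 1 and 0 elsewhere. The next value, 10, was reached by 20 further genes. By the naming rule these include Pip5k1c, a phosphoinositide kinase, Ap2m1, a clathrin adaptor subunit, Clpp, a mitochondrial protease, Klf13, Slc35e1, Bcl3 and Eed, a Polycomb subunit. None of these 8 had more than 2 peaks more than 1000 bp inside the gene in any library, so the likeness is weak.

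The pathway list holds 35 genes besides Acsl4, for acyl-CoA synthesis, remodelling of polyunsaturated phospholipids and ferroptosis. In the sample labelled control-GFP 1, 10 of 35 (28.6%) had a peak within 5 kb, beside 21.7% of all genes. On a RefSeq promoter 8 had one, beside 10.5% of all promoter windows, a share per window and not per gene. In the sample labelled knockout-GFP 2 the counts were also 10 and 8, beside 22.3% of genes and 11.1% of windows. In the one labelled knockout-GFP 1 they were 4 and 3, beside 11.2% of genes and 5.22% of windows. The samples labelled knockout-Acsl4 1, knockout-Acsl4 2 and control-GFP 2 marked 0, 3 and 1 of the 35, beside 1.68%, 10.9% and 4.53% of all genes. Of these marked members, 0, 0 and 1 had a promoter peak, beside 0.597%, 0.39% and 1.06% of windows. Over all peaks of a list, the share on a RefSeq promoter was 58.1% to 65.2% in the first 3 libraries of this paragraph. It was 29.5% in the one labelled knockout-Acsl4 1, 15.8% in the one labelled control-GFP 2 and 1.79% in the one labelled knockout-Acsl4 2. Most peaks thus lay on a promoter in the first 3 lists only. Whether members of the pathway had promoter peaks more often than other genes was not tested. None of the 35 had a peak in the same set of libraries as Acsl4, beside 0.777% of all genes. At that share a count of 0 among 35 is the usual case.

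The other long-chain synthetases had at most 1 peak per library and none more than 1000 bp inside the gene. Acsl1, which is broadly used in fat storage and oxidation, had a promoter peak in the samples labelled control-GFP 1 (score 11.6), control-GFP 2 (5.46) and knockout-GFP 2 (8.66), and a peak off the promoter window in the one labelled knockout-Acsl4 2 (1.54). Acsl3, the family member on lipid droplets, had a promoter peak in the samples labelled knockout-GFP 1 (1.97) and knockout-GFP 2 (4.0), and Acsl6 had 1 peak outside the gene in the one labelled control-GFP 1 (1.40). Acsl5 had none. The family members Acsl3, Acsl5 and Acsl6 are named here beyond the naming rule, after their values were seen.

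Among genes that act around Acsl4, the fatty acid transporter Slc27a1 had 1 peak in the sample labelled control-GFP 1, 1 in the one labelled knockout-GFP 1 and 3 in the one labelled knockout-GFP 2. Lpcat3, the acyltransferase that places polyunsaturated acyl-CoA into phospholipids, had a promoter peak in the same 3 libraries, with scores of 16.2, 6.82 and 9.31. Gpx4, the glutathione peroxidase that reduces phospholipid peroxides, also had 1 peak in each of these 3, scoring 6.42, 3.82 and 8.85. Mboat7, which esterifies arachidonate into phosphatidylinositol, had 1 peak in the samples labelled control-GFP 1, knockout-GFP 2 and knockout-Acsl4 2. Peaks more than 1000 bp inside were otherwise single ones, such as at Acsm1, a medium-chain synthetase, and Mboat2 in the sample labelled control-GFP 1.

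The lists differ in length and content, which touches every comparison above. They held 525 to 5874 peaks, and the share of peaks on a RefSeq promoter ran from 1.79% in the sample labelled knockout-Acsl4 2 to 65.2% in the one labelled knockout-GFP 2. The 2 libraries with Acsl4 peaks had 59.4% and 58.1%. With every list cut to its 525 best peaks, the sample labelled control-GFP 1 kept 4 Acsl4 peaks, the one labelled knockout-GFP 1 kept 6, and the others still had 0. Rictor, the deleted gene, had no peak within 5 kb in any library, so these lists do not check the knockout. Of 8 beta cell markers, Nkx6-1 and Mafa had a peak in the samples labelled control-GFP 1 and knockout-GFP 2, and Ins1, Ins2, Pdx1, Slc2a2, Ucn3 and Iapp had none in any library. This is 25% in each of these samples, beside 21.7% and 22.3% of all genes. Of 22 markers of other islet, exocrine, vascular, stromal and immune cells, 2 (9.09%) had a peak in the sample labelled knockout-Acsl4 2, beside 10.9% of all genes. In the other 5 samples 0 had one, beside 1.68% to 22.3% of all genes. Such counts say little of cell content.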

How the data were processed

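ATAC-seq peak lists of 6 mouse islet libraries were used, 1 per library. Per the labels' protocols, about 50 islets were lysed per sample, libraries had 12 PCR cycles, and paired reads were 50 bp. The tools, per the submitters' processing notes, were BWA 0.7.10 and MACS2 2.1.1 with SAMtools, Trimmomatic and FastQC; their roles and settings are not stated there. The value the authors deposited for each peak was read as −log10 q, since the smallest in every list lies just above 1.30. The notes name human builds. Coordinates were treated as mouse GRCm38 (RefSeq GRCm38.p6 tables), as up to 65.2% of a list's peaks lay on RefSeq promoters, and are given 1-based. That share was 29.5%, 15.8% and 1.79% in the samples labelled knockout-Acsl4 1, control-GFP 2 and knockout-Acsl4 2. It therefore says less of the build of those lists. Read depth was not given, so lists were made equal by their length alone, which need not follow depth. The sample labelled knockout-Acsl4 2 had the longest list (5874 peaks) and called 50 of the 119 strong shared pairs. The one labelled knockout-Acsl4 1 had the shortest (525 peaks) and called 99.

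Members, gene lists and alternatives were chosen with earlier results of these data known. Peaks overlapping Acsl4 plus 5 kb by at least 1 bp were counted per library (Python 3.11.15, pandas 2.3.3) and compared by two-sided exact permutation of libraries. Background shares cover 21887 protein-coding genes and 32851 promoter windows, from 250 bp before to 50 bp after a start. All 36 list genes matched the table. Counting was tested on simulated peaks, with 200 of 200 planted genes recovered. Named genes are Acsl4, Rictor, the 5 nearest protein-coding genes on each side, list members with a peak in at least 3 libraries or more than 1000 bp inside, the 8 genes most alike in peak numbers, and the 5 with the most inside peaks in each library that marked Acsl4. Ties in the number of inside peaks were broken by symbol. Alternatives were no window, 20 kb, the better 50% of each list, equal list lengths, covered length, inside peaks only, leaving out each library, and a replicate block. The comparison with stronger peaks and the crossed numbers were added after seeing the data.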

Additional observations from a re-analysis of the deposited data

How the results depend on the processing

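No difference between groups passed the exact permutation test in any setting run, and with so few libraries none could have at the usual threshold. Its smallest possible p is 0.33 for 2 against 2 and 0.067 for 2 against 4, and leaving out a library does not lower it. The settings therefore show only how the differences move. For knockout-GFP minus control-GFP, the difference of -0.5 peaks became 0 with the better 50% of each list, 0 with inside peaks only and 1 at equal list lengths, where the direction turned. Leaving out a library gave -4 to 3 for this comparison, -6 to 0 for knockout-Acsl4 minus knockout-GFP, -7 to 0 for knockout-Acsl4 minus control-GFP and -4.33 to -2 for Ad-Acsl4 minus Ad-GFP. With the replicate block, pairing by number, the differences stayed at -0.5, -3 and -3.5 (exact sign-flip p = 1 each). The numbers are not said to mark a shared source, and replicate deviations over genes correlated at -0.25, -0.014 and 0.059 for the 3 comparisons. Crossed numbers, tried for the first, gave -0.5 (exact sign-flip p = 1). Of the 6 shared Acsl4 peaks, 1 had identical borders, 5 were within 10 bp and 6 within 50 bp. Leaving out a library left 0 to 6 shared peaks, 0 when either library that holds them was out. The 170 genes with the library set of Acsl4 became 19 with inside peaks only, 100 with the better 50% of each list, and 174 to 1190 without a library (1190 without that labelled knockout-GFP 2). Of other shared peaks, 145 were in no other list, 18 of them inside genes. None of the 145 had scores at least as high as those of P2 in both lists at once. By 1 list alone, 23 reached the score of P2 in the sample labelled control-GFP 1 and 1 in the one labelled knockout-GFP 1. Peak calls without read counts limit what an empty locus shows.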
